A study of Mus musculus with 3 samples.

Results

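The genes described here are the receptors of the TREM family and the adaptor proteins DAP12 and DAP10, in single-cell RNA-seq of mouse peripheral blood (PB). They were chosen by gene name and are 7 of the 32285 features in the matrices: the receptor genes Trem1, Trem2, Trem3, Treml2 and Treml4, and the adaptor genes Tyrobp (DAP12) and Hcst (DAP10). PB leukocytes came from wild-type Balb/C mice that were either naive or had been engrafted with BBC2 cells, with blood collected at day 11 (D11, intermediate disease) or day 14 (D14, late disease). BBC2 is a single transplantable line that carries the BCR-FGFR1 fusion kinase and grows as a pro-B-like stem cell leukemia and lymphoma syndrome (SCLL). The mice engrafted in this study were females of 6 to 8 weeks of age. How many mice gave each library is not given in the sources used here. Red blood cells were lysed and dead cells removed before 10x 3′ libraries were made in all 3 conditions. There was 1 library per condition, so no test between conditions was possible, no value below has a replicate error, and a difference between conditions cannot be told apart from a difference between libraries. Each interval is a 95% interval for counting error alone.

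TREM receptors are immunoglobulin-fold proteins of myeloid cells with a short cytoplasmic tail, and most of them signal through DAP12, a small transmembrane chain with an ITAM motif that recruits the kinase SYK. DAP10 carries a different motif that recruits PI3-kinase and GRB2, and its best known partner is the NK and T cell receptor NKG2D (Klrk1). TREM-1 amplifies inflammatory signals in neutrophils and monocytes, whereas TREM-2 binds lipids and apolipoproteins and is known mainly from macrophages and microglia.

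The 5 receptor genes lie on chromosome 17 of the mouse genome (GRCm38, GENCODE vM21) in the order Trem1 (48232768 to 48246924), Trem3 (48247777 to 48258841), Treml4 (48264295 to 48275360), Treml2 (48299498 to 48312533) and Trem2 (48346401 to 48354147), all on the plus strand. Only 852 bases separate the end of Trem1 from the start of Trem3. The adaptors are neighbours on chromosome 7, with Tyrobp at 30413760 to 30417585 on the plus strand and Hcst at 30417712 to 30419854 on the minus strand. The 3′ ends of Tyrobp and Hcst face each other with 126 bases between them, and 10x 3′ reads keep the strand that tells the genes apart. RefSeq promoters (GRCm38.p6) were available for Trem1, Treml4, Hcst and Trem2. The 120 bases before each RefSeq start are shown 5′ to 3′ on the strand of the gene, with capitals for the letters GGAAGT or their reverse complement ACTTCC, a core recognised by ETS-family factors such as PU.1 that was chosen after the sequences were looked at.
Trem1, chr17:48232619-48232738, plus strand: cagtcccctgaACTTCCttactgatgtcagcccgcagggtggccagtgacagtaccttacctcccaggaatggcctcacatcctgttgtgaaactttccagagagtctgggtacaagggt
Treml4, chr17:48264175-48264294, plus strand: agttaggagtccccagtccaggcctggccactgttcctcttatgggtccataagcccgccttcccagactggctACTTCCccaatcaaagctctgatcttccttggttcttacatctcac
Hcst, chr7:30419855-30419974, minus strand: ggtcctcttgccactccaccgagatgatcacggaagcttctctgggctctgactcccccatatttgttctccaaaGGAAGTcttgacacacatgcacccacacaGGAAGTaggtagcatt
Trem2, chr17:48346281-48346400, plus strand: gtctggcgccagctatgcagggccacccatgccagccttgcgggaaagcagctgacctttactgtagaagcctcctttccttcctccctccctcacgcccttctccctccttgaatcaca
The letters occurred 1 time in the windows of Trem1 (109 bases before the start) and Treml4 (46 bases), 2 times in that of Hcst (45 and 16 bases), and 0 times in that of Trem2. Among all 32851 RefSeq promoters, 3807 windows of the same length (11.6%) held them on either strand. A match is a description of the sequence and does not show that a factor binds there.

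Of 5386, 8536 and 9337 barcodes in the naive, D11 and D14 libraries, 3811, 4567 and 4414 passed a filter on genes detected (200 or more) and mitochondrial share (10% of UMIs or less), with a median of 6031 to 6781 UMIs per cell. The libraries shared 12 to 18 barcodes in pairs. Cells were put into classes by marker genes that include none of the 7 genes, and in every class all 8 of its own markers were detected. Neutrophil-like cells numbered 1330 in naive, 1608 in D11 and 1292 in D14, cMono-like cells (classical monocytes) 131, 219 and 122, and ncMono-like cells (non-classical monocytes) 134, 206 and 642. NK-like cells numbered 195, 192 and 52, T-like cells 1263, 262 and 111, and B-like cells 402, 273 and 59. Pro-B-like cells, the class of the leukemic line, numbered 1 in naive, which is not described, then 92 and 563. Erythroid-like cells, which the lysis should have removed, were 2.15%, 31.5% and 25.3% of cells kept, and 249, 245 and 430 cells had no class. Levels below are CPM, the UMIs of a gene per 1000000 UMIs summed over all cells of a class in a library. RNA of pro-B type was also counted in other classes at D14: the 8 pro-B markers summed to 102 CPM in neutrophil-like, 52.7 in ncMono-like, 212 in NK-like, 56.1 in T-like and 275 in B-like cells, against 0 to 7.42 CPM over the leukocyte classes in naive. In cMono-like cells they summed to 5.85 CPM at D14, and in pro-B-like cells to 1586.

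The 7 genes divided the blood classes between them. Tyrobp was found in neutrophil-like, monocyte-like and NK-like cells, and Hcst in NK-like, T-like and neutrophil-like cells. Trem1 and Trem3 were highest in neutrophil-like cells, Treml4 in ncMono-like cells and Trem2 in cMono-like cells. Treml2, like Hcst, had levels in both neutrophil-like cells and lymphocytes. In the leukemic pro-B-like cells Treml2 and Hcst were the members above 10 CPM, and the other 5 genes lay between 0 and 2.27 CPM there.

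**Figure D1:**
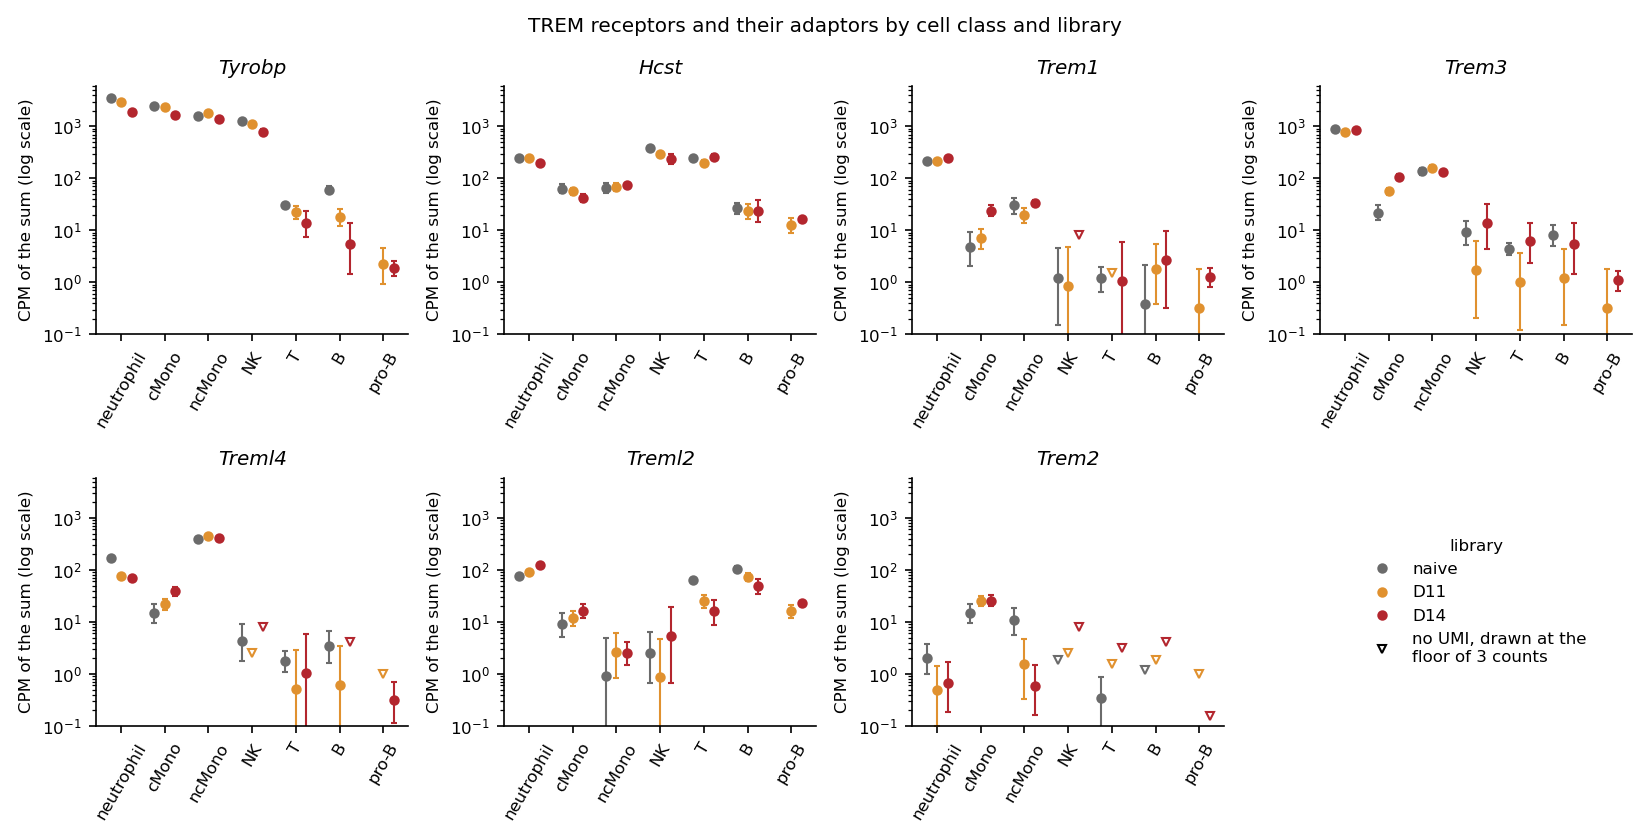
Level of each gene as CPM of the summed UMIs (log scale) in 7 cell classes of the naive, D11 and D14 libraries, with exact Poisson 95% intervals; open triangles mark sums with no UMI, drawn at the floor of 3 counts. Tyrobp separates the myeloid and NK-like classes (785 to 3485 CPM) from T-like, B-like and pro-B-like cells (1.89 to 60.4 CPM), while Trem3 in cMono-like cells climbs from 22.1 to 107 CPM.

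With 1 library a group, a gene was counted as higher or lower at D14 when its CPM differed from naive by at least 2-fold and reached 50 CPM in either library. The minimum could thus be met through the higher library alone, for the members, for the pathway lists and for all genes. In neutrophil-like cells 6 members reached that level, of which 0 were higher and 1 (Treml4) was lower, against 8.01% higher and 9.66% lower among all 3157 genes at that level. In cMono-like cells 1 of 3 members (Trem3) was higher and 0 were lower, beside 4.69% and 3.72% of all genes. Trem3 was among the 3 only through its D14 level (22.1 CPM in naive, 107 in D14). Neither direction held any of the 4 members at that level in ncMono-like cells (3.32% and 2.84% of all genes) or of the 2 in NK-like cells (3.50% and 2.21%). In T-like cells Treml2, 1 of 2 members at that level, was lower (1.38% of all genes, with 5.92% higher), and in B-like cells both such members, Treml2 and Tyrobp, were lower (9.26% of all genes, with 18.9% higher), but Tyrobp only while doublets called by Scrublet were kept, since its naive B-like level without them was 19.7 CPM. As a mean of per-cell CPM it was 47.5 CPM, also under 50. Treml2 in T-like cells, and Treml2 and Tyrobp in B-like cells, met the minimum only through naive. With so few members at that level, these counts are a description of single genes.

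Tyrobp, the DAP12 chain that the myeloid TREM receptors need for surface expression and signalling, was lower at D14 than in naive blood in all 4 classes that carry it. In neutrophil-like cells its level was 3485 CPM in naive (95% interval 3433 to 3538), 2937 in D11 (2894 to 2980) and 1898 in D14 (1863 to 1933). The D14 level was 0.545 times the naive one (0.532 to 0.558; log2 -0.88), where the median gene of the class stood at log2 -0.23. In cMono-like cells Tyrobp was at 2424, 2331 and 1640 CPM, a D14 ratio of 0.677 (0.648 to 0.706). Almost the whole of that difference lay between D11 and D14. In NK-like cells the levels were 1291, 1130 and 785 CPM, with a D14 ratio of 0.608 (0.536 to 0.688). In ncMono-like cells the levels were 1608, 1813 and 1372 CPM, so D11 was the highest of the libraries and D14 was at 0.853 of naive (0.811 to 0.897). The order of the classes, neutrophil-like above cMono-like above ncMono-like above NK-like, held in each library with intervals that did not overlap, but the gap narrowed: neutrophil-like cells had 1.44 times the cMono-like level in naive and 1.16 times in D14.

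In neutrophil-like cells the lower level was seen cell by cell. Of neutrophil-like cells, 98.4%, 95.1% and 79.0% held a Tyrobp UMI in naive, D11 and D14, or 93.9%, 91.5% and 73.3% when each cell was thinned to 1000 UMIs. In T-like cells, which should lack the gene, the share was 7.21%, 4.58% and 3.60%, at a median of 9110, 6990 and 7604 UMIs against 3444, 3266 and 3774 in neutrophil-like cells. The cells without Tyrobp were mainly shallow ones. Among neutrophil-like cells under 2000 UMIs, which were 9.17% of the class in naive and 26.5% in D14, Tyrobp was at 2379, 2469 and 429 CPM and was found in 83.6%, 75.9% and 28.9% of cells. Trem3 in these same shallow cells was at 737, 796 and 906 CPM. Other genes were lower there at D14 together with Tyrobp, with Fcer1g at 976, 1135 and 305 CPM, Hcst at 163, 183 and 62.0 CPM and S100a8 at 15648, 18644 and 7289 CPM. Their median mitochondrial share was 0.337%, 0.318% and 1.98%, and their pro-B markers summed to 5.42, 23.4 and 119 CPM. The part of RNA quality and of leukemic RNA in their Tyrobp level was not tested. Among cells with at least 3000 UMIs (876, 921 and 784 cells) Tyrobp was found in 100%, 99.9% and 99.0%, and its level was still lower, at 3483, 2893 and 2019 CPM. The median deep cell had 35.3, 29.4 and 20.6 Tyrobp UMIs per 10000 UMIs. The 10th percentile was 19.6, 15.5 and 10.3 and the 90th percentile 53.4, 49.1 and 34.5, so the low, middle and high cells of D14 all lay below those of naive. Deep cMono-like cells had a median of 24.0, 22.9 and 16.2, and deep NK-like cells one of 12.1, 10.0 and 7.31. In deep ncMono-like cells the median was 14.1, 17.2 and 13.4. Their 10th percentile was 6.06, 8.46 and 6.23, so the low ncMono-like cells of D14 did not lie below those of naive.

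**Figure D2:**
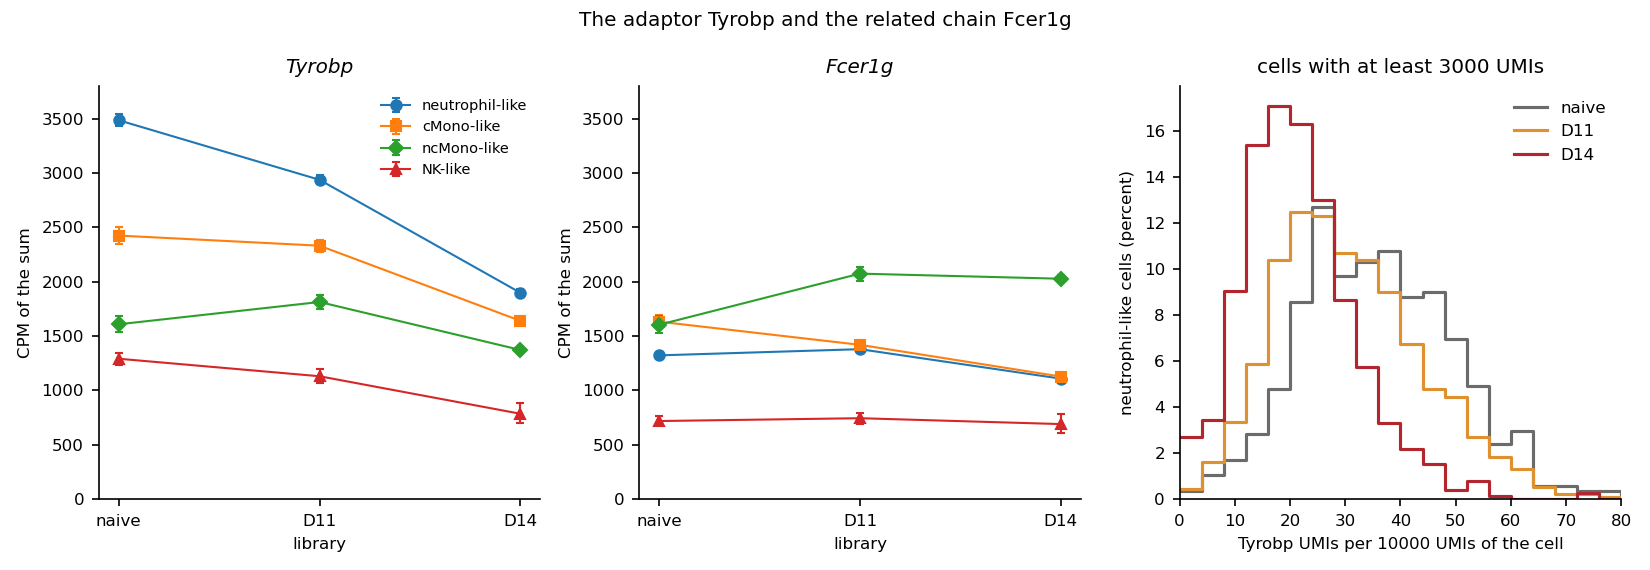
Left and middle, CPM of Tyrobp and of the related ITAM chain Fcer1g in the 4 classes that carry them, by library, with exact Poisson 95% intervals; right, share of neutrophil-like cells with at least 3000 UMIs (percent) by Tyrobp UMIs per 10000 UMIs of the cell. Tyrobp is lower at D14 in every class (1898 against 3485 CPM in neutrophil-like cells), Fcer1g is higher at D14 in ncMono-like cells (2027 against 1604 CPM), and the D14 curve is shifted to the left as a whole.

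Neutrophil maturity moved with the disease as well. Immature neutrophil-like cells (Ltf, Camp and Ngp, at 1% of UMIs or more) numbered 12, 101 and 205, and their Tyrobp level was 1549, 1967 and 1661 CPM. Without them the remaining neutrophil-like cells were at 3534, 3087 and 1991 CPM. Retnlg, a resistin-like gene of neutrophils, was itself at 2736, 7503 and 14826 CPM, and S100a8 in deep cells was at 38896, 50238 and 74140 CPM. CPM are shares of a sum, and the part of these gains in the level of other genes was not tested. Within cells that had no Retnlg UMI after thinning, Tyrobp was at 3512, 3284 and 1934 CPM, and within those with 5 or more at 3330, 2672 and 2007 CPM. The D14 level was thus the lowest in both of these ranges.

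Fcer1g, the ITAM chain of Fc receptors and a structural relative of DAP12, was named for comparison after its values were seen. In neutrophil-like cells it was at 1322, 1379 and 1108 CPM, a D14 ratio of 0.838 (0.809 to 0.867) that is closer to 1 than that of Tyrobp. In cMono-like cells it was at 1632, 1419 and 1127 CPM, a ratio of 0.691 (0.656 to 0.727) near that of Tyrobp in the same class. The chains parted in ncMono-like cells, where Fcer1g was at 1604, 2074 and 2027 CPM and D14 stood at 1.26 times naive (1.20 to 1.33) while Tyrobp stood below 1. In NK-like cells Fcer1g was at 718, 744 and 690 CPM, a ratio of 0.960 (0.835 to 1.10).

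Hcst, the PI3-kinase-coupled adaptor of NKG2D, was highest in NK-like cells of naive blood and was lower there with disease. Its NK-like level was 385 CPM in naive (355 to 416), 290 in D11 (260 to 323) and 236 in D14 (189 to 291), a D14 ratio of 0.614 (0.484 to 0.769). In T-like cells the level was 251, 201 and 259 CPM, with a D14 ratio of 1.03 (0.901 to 1.17). The order of the classes changed: NK-like cells had 1.53 times the T-like level in naive (1.40 to 1.67) and 0.911 times in D14, an interval of 0.705 to 1.17 that does not separate them. Neutrophil-like cells held 246, 245 and 198 CPM, a level close to that of T-like cells in naive (ratio of T to neutrophil 1.02, 0.957 to 1.10). In ncMono-like cells Hcst was at 66.2, 67.6 and 75.0 CPM, and in cMono-like cells at 63.9, 56.5 and 42.0 CPM. Pro-B-like cells had 12.7 and 16.4 CPM and B-like cells 26.9, 23.3 and 24.1 CPM, with intervals of the pro-B-like and B-like levels that overlapped in both libraries. The 52 NK-like cells of D14 gave only 368337 UMIs in all, and their pro-B markers at 212 CPM were the second highest of the leukocyte classes, after B-like cells. How much of the NK-like values at D14 this mixture accounts for was not tested.

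Trem3, an activating receptor that mice express and that pairs with DAP12, kept close to its naive level in neutrophil-like cells and was higher in cMono-like cells with disease. In neutrophil-like cells it was at 876 CPM in naive (850 to 903), 784 in D11 (762 to 806) and 852 in D14 (829 to 876), with a D14 ratio of 0.973 (0.934 to 1.01) whose sign turned under another scaling (log2 -0.04, and 0.14 with TMM factors). In cMono-like cells it was at 22.1 CPM in naive (15.6 to 30.5), 56.9 in D11 (48.6 to 66.1) and 107 in D14 (95.5 to 120). The ratio to naive was 2.57 in D11 (1.79 to 3.78) and 4.86 in D14 (3.44 to 7.04), and the intervals of the 3 levels did not overlap. The cells of this class that held a Trem3 UMI were 15.3%, 37.0% and 68.0%. At an equal depth of 1000 UMIs they were 0.763%, 7.76% and 10.7%, against 0.398%, 0.383% and 0 of 111 cells (95% upper limit 3.27%) in T-like cells. The D11 and D14 shares lay above that background. The naive share was 1 of 131 cells (0.0193% to 4.18%), too few to set against it. Without thinning, naive T-like cells were at 1.66% of cells and 4.42 CPM (3.30 to 5.80), below the naive cMono-like 15.3% and 22.1 CPM. The median depth of these naive classes was 9110 and 12587 UMIs. In ncMono-like cells Trem3 was at 136, 162 and 133 CPM. The 2 monocyte classes therefore came together: ncMono-like cells had 6.15 times the cMono-like level in naive, 2.85 times in D11 and 1.24 times in D14.

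Neutrophil RNA in the cMono-like class was measured beside this result. All 8 neutrophil markers summed to 301, 334 and 358 CPM there, with Ly6g at 0 in naive. As a share of the neutrophil-like level, Trem3 in cMono-like cells was 2.52%, 7.26% and 12.6%. Retnlg was at 0.0655%, 0.0493% and 0.140% of the neutrophil-like level in the same cells, and Cxcr2 at 0.469%, 0.443% and 0.413%. Il1r2 moved with Trem3, at 0.798%, 1.47% and 5.15%. Mmp8, which was high in naive cMono-like cells already, was at 98.6, 99.6 and 154 CPM there. Its share was 26.5%, 10.7% and 5.66%, beside a neutrophil-like level of 372, 929 and 2720 CPM. As levels in cMono-like cells, Retnlg was at 1.79, 3.70 and 20.8 CPM and Il1r2 at 7.17, 10.4 and 63.6 CPM. Cxcr2 was at 7.77, 6.73 and 5.48 CPM. The neutrophil-like level of Retnlg, by which its share was divided, was 2736, 7503 and 14826 CPM. The 8 progenitor markers moved with Trem3 in this class, with a sum of 37.1, 94.2 and 303 CPM, of which 5, 7 and 7 were detected and Gata2 was at 0 in D11 and D14. The median depth of the class was 12587, 13613 and 21068 UMIs. The part of neutrophil RNA, of early myeloid cells and of depth in the Trem3 level was not tested.

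Trem1, the receptor for the peptidoglycan-binding protein PGLYRP1, was mainly a neutrophil gene. Its neutrophil-like level was 215 CPM in naive (202 to 228), 216 in D11 (204 to 228) and 243 in D14 (231 to 256), a D14 ratio of 1.13 (1.04 to 1.23). A Trem1 UMI was found in 47.5%, 48.1% and 57.6% of these cells, and at equal depth in 19.0% in naive and 23.4% in D14. In ncMono-like cells it was at 30.4, 19.9 and 33.2 CPM, and the naive interval (21.1 to 42.5) overlapped both others. In cMono-like cells only 8, 21 and 66 UMIs were counted, which is 4.78 CPM (2.06 to 9.42), 7.06 CPM (4.37 to 10.8) and 24.1 CPM (18.7 to 30.7). The D14 ratio there was 5.05 (2.42 to 12.2), and with a looser class gate it was smaller (log2 1.49 against 2.33). Trem1 and Trem3, neighbours in the genome, were both higher in cMono-like cells of D14, where the progenitor markers were higher too. T-like cells had 0 to 1.19 CPM of Trem1. Neutrophil-like cells gave 89.7%, 90.9% and 77.6% of all Trem1 UMIs in leukocytes.

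**Figure D3:**
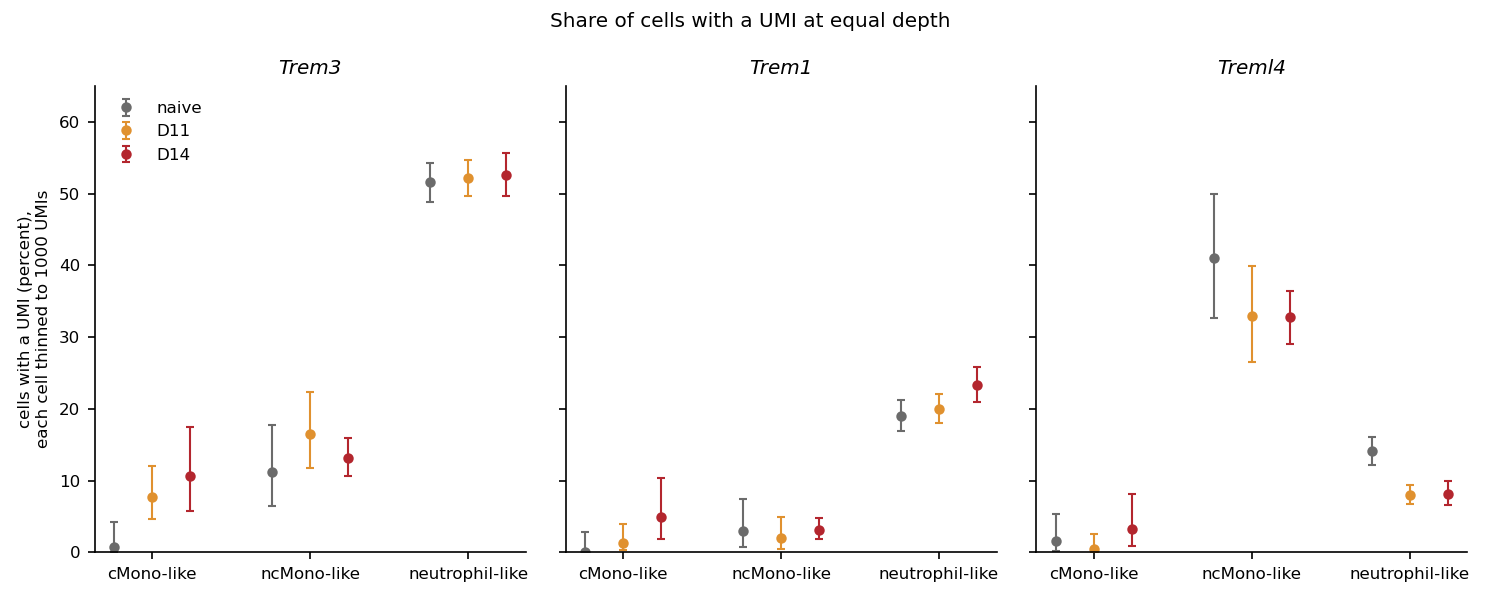
Share of cells with at least 1 UMI of Trem3, Trem1 or Treml4 (percent) after each cell was thinned to 1000 UMIs, in cMono-like, ncMono-like and neutrophil-like cells of the 3 libraries, with Clopper-Pearson 95% intervals. The cMono-like share of Trem3 goes from 0.763% in naive to 10.7% in D14 while the neutrophil-like share stays at 51.6% to 52.6%, and the neutrophil-like share of Treml4 goes from 14.1% to 8.17%.

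Treml4, a receptor known from macrophages and dendritic cells that binds dying cells, was highest in ncMono-like cells, where its levels in the 3 libraries were close. The ncMono-like level was 400 CPM in naive (363 to 438), 448 in D11 (418 to 479) and 419 in D14 (403 to 434), with a D14 ratio of 1.05 (0.948 to 1.16). Of these cells 81.3%, 91.7% and 93.9% held a UMI, or 41.0%, 33.0% and 32.8% at equal depth. The naive interval at equal depth (32.6% to 49.9%) overlapped both others. The neutrophil-like level behaved otherwise, at 172 CPM in naive (160 to 184), 77.2 in D11 (70.4 to 84.5) and 68.9 in D14 (62.4 to 75.8). The ratio to naive was 0.449 in D11 (0.401 to 0.504) and 0.401 in D14 (0.355 to 0.452), so most of the difference was already there at D11, unlike that of Tyrobp. Neutrophil-like cells with a Treml4 UMI were 33.5%, 21.5% and 21.9%, or 14.1%, 7.99% and 8.17% at equal depth, while T-like cells had 0.950%, 0.382% and 0.901% without thinning. In neutrophil-like cells Treml4 was at 43.0%, 17.2% and 16.4% of its ncMono-like level. Ace, Adgre4 and Cd300e, 3 of the 8 ncMono markers, were at 0.203% to 0.679% of theirs. All 8 ncMono markers summed to 227, 203 and 182 CPM in neutrophil-like cells, against 4904, 5472 and 4646 CPM in ncMono-like cells. The part of ncMono RNA in the neutrophil-like Treml4 level was not tested. Within neutrophil-like cells free of Retnlg after thinning, Treml4 was at 160, 101 and 114 CPM. Within those with 5 or more Retnlg UMIs it was at 195, 62.8 and 61.1 CPM. The naive level was thus the highest in both ranges. Among neutrophil-like cells under 2000 UMIs, which were 26.5% of the class in D14, no such difference was seen. There Treml4 was at 119 CPM in naive (74.7 to 181), 98.3 in D11 (70.8 to 133) and 127 in D14 (94.2 to 166). It was found in 14.8%, 11.7% and 13.1% of these shallow cells. Among cells with at least 3000 UMIs it was at 178, 71.0 and 62.2 CPM. In cMono-like cells Treml4 was at 14.9, 21.9 and 39.1 CPM, a D14 ratio of 2.62 (1.68 to 4.22) that was smaller with the looser class gate (log2 0.72 against 1.39). Its cMono-like share at equal depth was 1.53%, 0.457% and 3.28%, too close to single UMIs to give an order.

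With 642 ncMono-like cells in D14 against 134 in naive, the main source of Treml4 UMIs differed between the libraries. Neutrophil-like cells gave 55.5% of the 1503 Treml4 UMIs of naive leukocytes, 29.8% of 1588 in D11 and 11.4% of 3625 in D14. The ncMono-like cells gave 29.7%, 53.8% and 78.2%. Tyrobp UMIs shifted in the same direction, from 60.2% to 40.5% in neutrophil-like cells and from 6.40% to 33.0% in ncMono-like cells. Such shares mix cell number with level per cell, and in blood taken as a whole fewer cells of a type could not be told apart from less RNA per cell.

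**Figure D4:**
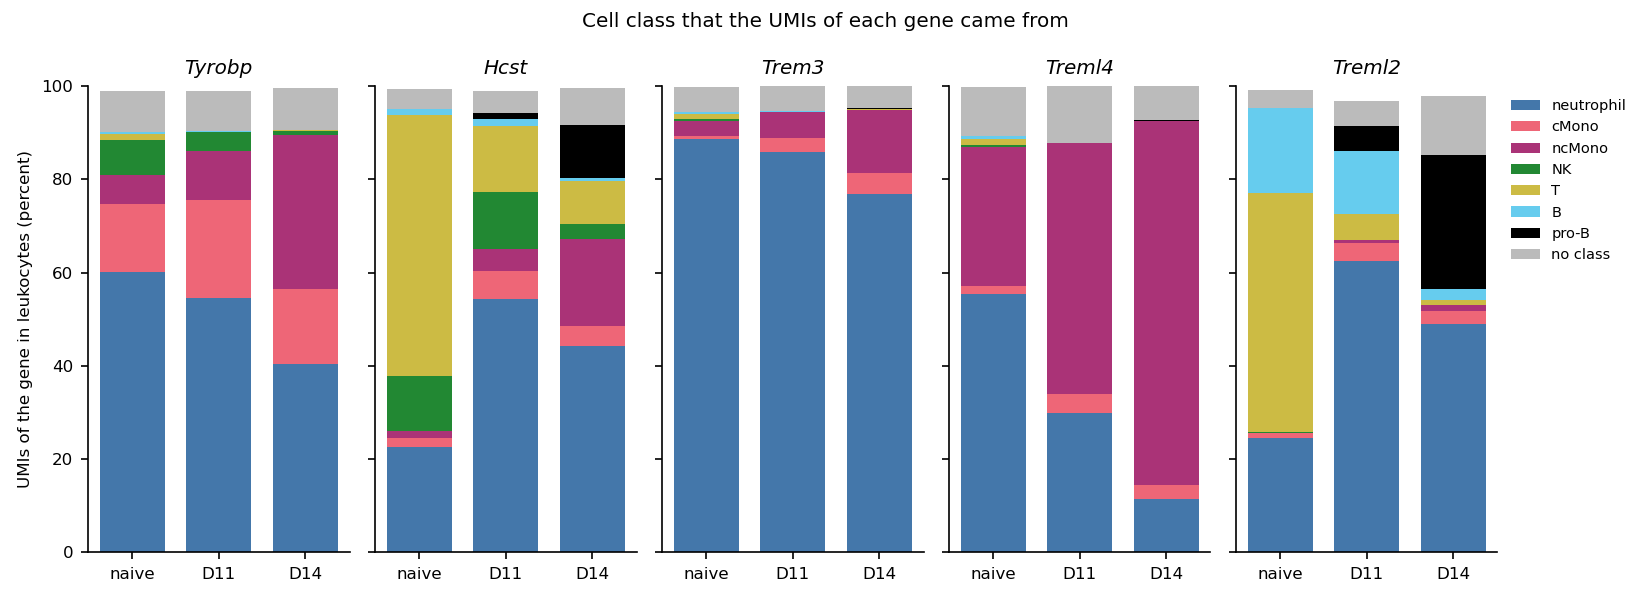
Share of the UMIs of each gene in leukocytes (percent) that came from each cell class, with erythroid-like cells left out and cells without a class in gray. The 1 pro-B-like cell of naive is drawn, and the rare classes under 50 cells in every library are not. Treml4 goes from mostly neutrophil-like (55.5%) in naive to mostly ncMono-like (78.2%) in D14, and T-like cells give 51.3% of Treml2 UMIs in naive and 0.982% in D14.

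Treml2, a TREM-like receptor known from both myeloid cells and lymphocytes, had a higher summed level in neutrophil-like cells and a lower one in T-like and B-like cells with disease. In neutrophil-like cells it was at 75.4 CPM in naive (67.9 to 83.5), 92.0 in D11 (84.6 to 100) and 124 in D14 (115 to 133), a D14 ratio of 1.65 (1.45 to 1.87). Immature neutrophil-like cells were at 126, 101 and 168 CPM, and the others at 74.1, 90.6 and 107 CPM. The part of maturity in the neutrophil-like Treml2 level was not tested. In T-like cells it was at 65.2 CPM in naive (60.7 to 70.0), 25.4 in D11 (18.9 to 33.5) and 15.9 in D14 (8.88 to 26.2), a D14 ratio of 0.243 (0.136 to 0.404). In B-like cells it was at 105, 74.2 and 49.6 CPM, a D14 ratio of 0.471 (0.325 to 0.666) that rested on 37 UMIs in D14. The order of classes was B-like, neutrophil-like, T-like in naive and neutrophil-like, B-like, T-like in D14, although the naive intervals of neutrophil-like and T-like cells overlapped. T-like cells with a UMI were 37.9%, 16.8% and 9.01%. At equal depth they were 6.21% (4.94% to 7.68%), 4.98% (2.68% to 8.37%) and 1.80% (0.219% to 6.36%), with intervals that overlapped. Monocyte-like cells held little, with 8.96, 11.8 and 16.4 CPM in cMono-like and 0.894 to 2.62 CPM in ncMono-like cells. Pro-B-like cells held 16.2 CPM in D11 and 23.1 CPM in D14, below the B-like level of the same library by 4.57 and 2.15 times, yet they gave 28.7% of all Treml2 UMIs in D14. The B-like class of D14 was the least pure one, with its own 8 markers at 8975, 8391 and 3583 CPM and the pro-B markers at 275 CPM, and the part of this in its Treml2 level was not tested. Its mean of per-cell levels also gave a smaller difference (log2 -0.27 against -1.09). B-like cells with a Treml2 UMI were 42.3%, 33.0% and 40.7%. At equal depth they were 9.23% (6.58% to 12.5%), 7.41% (4.58% to 11.2%) and 6.90% (1.91% to 16.7%), with intervals that overlapped.

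Tyrobp in B-like cells was at 60.4, 17.8 and 5.36 CPM, from 155, 29 and 4 UMIs, and in T-like cells at 30.8, 22.4 and 13.8 CPM. The B-like value counted as lower at D14 is therefore a trace level, found in 11.7% of the cells in naive, at 19.7 CPM without doublets, and below the NK-like and myeloid levels by far. Pro-B-like cells, at a median of 32426 and 33121 UMIs a cell, held 2.27 and 1.89 CPM of Tyrobp. The leukemic class thus carried next to no DAP12 message.

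Trem2 was rare in blood, with 64, 95 and 91 UMIs in all leukocytes, and its levels in the monocyte classes moved apart. In cMono-like cells it was at 14.9 CPM in naive (9.67 to 22.1), 25.6 in D11 (20.1 to 32.0) and 25.6 in D14 (19.9 to 32.3), from 25, 76 and 70 UMIs in 17, 42 and 34 cells. The D14 ratio was 1.71 (1.07 to 2.82). In ncMono-like cells it was at 10.7 CPM in naive (5.54 to 18.7), 1.57 in D11 (0.324 to 4.59) and 0.591 in D14 (0.161 to 1.51), from 12, 3 and 4 UMIs, although 642 such cells were present in D14. The D14 ratio was 0.0551 (0.0129 to 0.182). The cMono-like level was 1.39 times the ncMono-like one in naive (0.674 to 3.04), which does not separate the classes, 16.3 times in D11 (5.36 to 80.6) and 43.3 times in D14 (16.2 to 163). No Trem2 UMI was counted in NK-like, B-like or pro-B-like cells, where the floor of 3 counts lay between 0.158 and 8.14 CPM.

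Genes that act with these receptors were described from 7 lists of 70 genes in all, by role. Among other TREM genes, Treml6 (listed as B430306N03Rik) was at 160, 171 and 163 CPM in neutrophil-like cells, and Treml1, a platelet receptor, had 0 to 5 UMIs in each leukocyte class. The list of partner receptors holds other receptors that pair with DAP12 or DAP10, and some, such as Csf1r and Itgb2, that are only linked to their signalling. These were lower in part at D14. In neutrophil-like cells 6 of the 10 at 50 CPM or more were lower by 2-fold and 0 were higher, beside 9.66% and 8.01% of all genes, and the list median was log2 -1.07 against -0.23 for all genes. Cd300c2, an activating member of the CD300 family, was at 269, 177 and 60.9 CPM. Csf1r, the receptor of M-CSF, was at 161, 130 and 67.2 CPM, and Sirpb1c, an activating SIRP receptor, at 247, 163 and 107 CPM. The remaining 3 past 2-fold were Cd300lb (421, 319 and 189 CPM), Sirpb1a (284, 214 and 130 CPM) and Sirpb1b (250, 204 and 124 CPM). Sirpb1a, Sirpb1b and Sirpb1c are near-identical copies, so how reads were split among them is uncertain. Of the 6 calls, 1 (Cd300c2) was left without immature cells, 2 (Cd300c2 and Cd300lb) as a mean of per-cell CPM and 3 with TMM factors. Among all genes 6.84%, 7.67% and 6.35% were lower under these settings. Among receptors under 2-fold, Clec5a was at 67.4, 96.6 and 94.3 CPM and the integrin chain Itgb2 at 349, 437 and 466 CPM, both above naive at D14.

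Some receptors of this list were lower in monocyte-like cells. In cMono-like cells 3 of 7 partner receptors were lower, beside 3.72% of all genes, with a list median of log2 -0.96 against 0.02: Cd300c2 (158, 96.5 and 49.3 CPM), Sirpb1c (167, 110 and 79.3 CPM) and Sirpb1b (151, 134 and 72.7 CPM). As a mean of per-cell CPM, Cd300c2 alone of these receptors was past 2-fold there, beside 3.46% of all genes lower. In ncMono-like cells 4 of 10 were lower, beside 2.84% of all genes, with a list median of log2 -0.44 against 0.02. Klrk1, which encodes the DAP10 partner NKG2D, was at 63.5, 14.7 and 3.10 CPM there, Sirpb1a at 224, 127 and 79.7 CPM, and Sirpb1c at 139, 110 and 54.6 CPM. Csf1r went the other way in ncMono-like cells, with 548, 671 and 755 CPM and a D14 ratio of 1.38, and so did Itgb2 at a ratio of 1.24, both below the 2-fold mark. NK-like cells had 5 partner receptors at that level and 0 past 2-fold, beside 3.50% of all genes higher and 2.21% lower. Their Klrk1 was at 604, 753 and 657 CPM and their Klrd1, which pairs with NKG2 chains, at 1051, 1195 and 863 CPM. In these cells the D14 ratios of Tyrobp (0.608, 0.536 to 0.688) and Hcst (0.614, 0.484 to 0.769) lay below that of Klrk1 (1.09, 0.940 to 1.25). The interval of Klrd1 (0.821, 0.726 to 0.927) lay above that of Tyrobp but overlapped that of Hcst.

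Downstream of the receptors few genes passed 2-fold, and the shares among all genes were small too. Of 26 kinases and signalling proteins, 18 reached 50 CPM in neutrophil-like cells. Of these 0 were past 2-fold in either direction, beside 8.01% higher and 9.66% lower among all genes. The list median was log2 -0.34 against -0.23 for all genes. Syk, the kinase that binds the DAP12 ITAM, came closest at 1014, 632 and 533 CPM, a D14 ratio of 0.526 (0.503 to 0.550), and was at 552, 444 and 354 CPM in cMono-like cells. In cMono-like cells 1 of 18, the SRC-family kinase Fyn, was higher (43.6, 58.9 and 89.9 CPM), beside 4.69% of all genes. In ncMono-like cells 1 of 21, the exchange factor Vav2, was higher (24.1, 47.2 and 50.8 CPM), beside 3.32%. Fyn and Vav2 were each under 50 CPM in naive and met the minimum through D14. The inhibitors, which include SHIP1, SHP-1 and the CBL ligases, held 0 genes past 2-fold in the 4 classes. Only 4 to 7 of them reached 50 CPM in a class, and 2.21% to 9.66% of all genes were past 2-fold in each direction. Cblb in ncMono-like cells was at 775, 1062 and 1389 CPM. The sheddases Adam10 and Adam17, which release TREM-2 from the surface, were at 0.672 to 1.33 times their naive level.

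Of the listed ligands at 50 CPM or more, Apoe alone passed 2-fold in these classes. It was the 1 lower of 4 ligands in neutrophil-like cells (9.66% of all genes), of 3 in cMono-like cells (3.72%) and of 3 in ncMono-like cells (2.84%). In NK-like cells 0 of 2 were lower (2.21%). Pglyrp1, which encodes a ligand of TREM-1, was at 842 CPM in naive neutrophil-like cells, 1192 in D11 and 1665 in D14, a ratio of 1.98 (1.91 to 2.05) just under the 2-fold mark. It was at 50.8, 73.0 and 83.0 CPM in cMono-like cells and at 323, 304 and 292 CPM in ncMono-like cells. Hmgb1, a further reported ligand of TREM-1, was at 259, 205 and 257 CPM in neutrophil-like cells. Apoe, which encodes the apolipoprotein E that TREM-2 binds, was lower by 2-fold in all 3 myeloid classes. It was at 1891, 538 and 166 CPM in cMono-like cells, a D14 ratio of 0.0875 (0.0791 to 0.0966), and at 1999, 749 and 376 CPM in ncMono-like cells. In neutrophil-like cells it was at 71.7, 40.3 and 7.65 CPM. In cMono-like cells, where Trem2 was at 1.71 times its naive level, its ligand gene was thus at 0.0875 times.

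**Figure D5:**
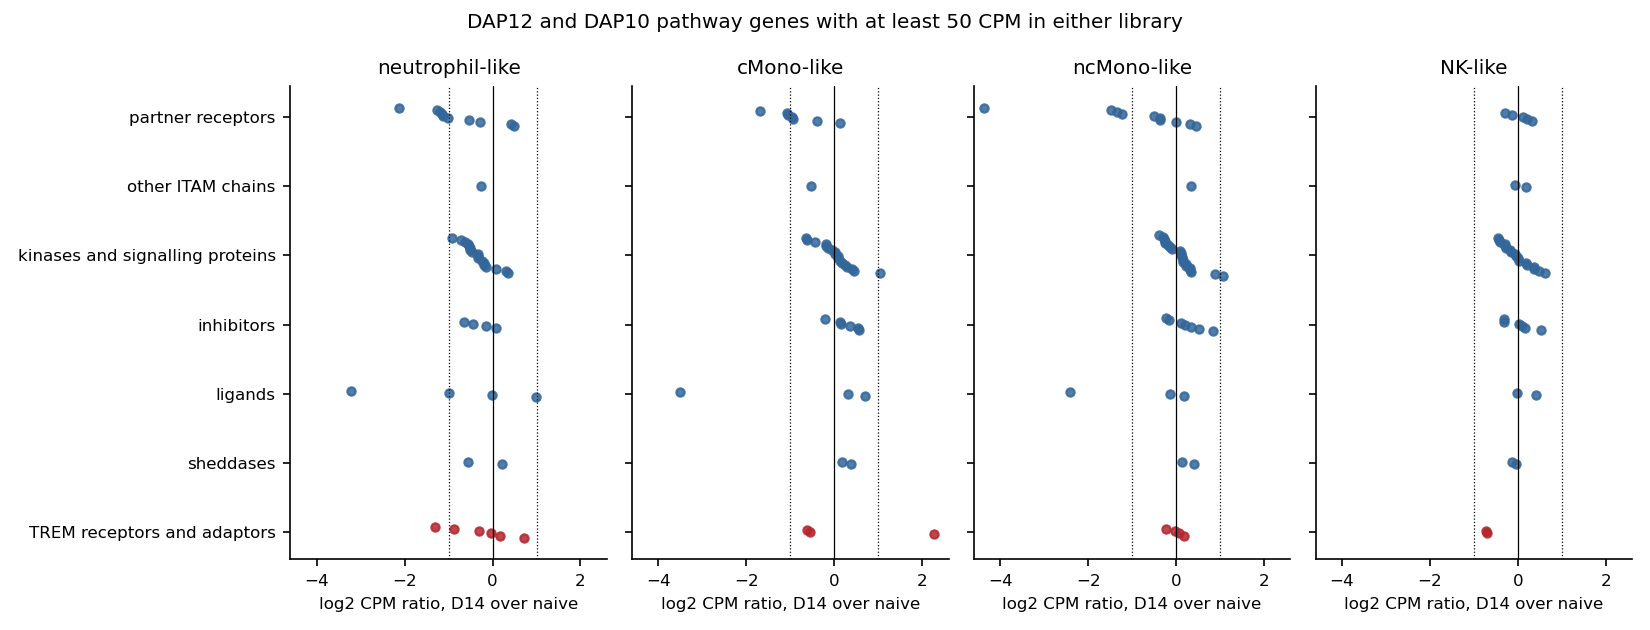
Log2 ratio of CPM, D14 over naive, for each pathway gene (blue) and each TREM receptor or adaptor (red) with at least 50 CPM in either library, by role, in 4 classes; the single gene of the list of other TREM genes, B430306N03Rik in neutrophil-like cells, is not drawn, and dotted lines mark 2-fold. Partner receptors lie to the left in neutrophil-like cells (median log2 -1.07), cMono-like cells (-0.96) and ncMono-like cells (-0.44) but not in NK-like cells (0.12), and the far point to the right in cMono-like cells is Trem3 (2.28).

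Over the 20 class sums of at least 50 cells (log2 of CPM + 1, across 6847 genes), some members had closely matching patterns. Trem1 and Trem3 had a Pearson correlation of 0.94, Trem3 and Treml4 one of 0.88, and Tyrobp and Trem3 one of 0.78. The adaptors had one of 0.49 with each other, and Treml2 had one of -0.33 to 0.19 with each other member. The sums share libraries, depth and cell classes, and these values are a description. The genes most like Tyrobp were Fcer1g (0.980), Apobr (0.970) and Itgam (0.966), and those most like Trem3 were C5ar1 (0.971), Hlx (0.966) and Pygl (0.963). Trem1 was most like Kdm6b (0.961), Cd300lf (0.957) and 9130230L23Rik (0.955). Treml4 was most like Pilrb1 (0.963), Fcgr4 (0.961) and Cd300ld (0.961), which is one of the markers that defined the ncMono-like class. Hcst was most like Rinl (0.950), Kif1b (0.947) and Tmem71 (0.942), Trem2 like Abca9 (0.941), Msr1 (0.929) and C1galt1c1 (0.922), and Treml2 like Rbm38 (0.853), Rcsd1 (0.805) and Tmem154 (0.793).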

How the data were processed

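Raw UMI counts per gene and barcode were deposited by the authors as filtered matrices. Per the labels, Cell Ranger 7.1.0 and mm10 were used, whereas the matrix headers name cellranger 5.0.1. The 7 genes and all lists were chosen with earlier results of these data known. Barcodes under 200 genes or over 10% mitochondrial UMIs were dropped. A cell joined a class with at least 3 of its 8 markers and 2 more than of the next list, or as erythroid-like at 25% hemoglobin UMIs. Counts were summed per class of at least 50 cells and library and scaled to CPM. Intervals were exact Poisson for levels, conditional binomial for ratios and Clopper-Pearson for shares. PCR and sampling beyond counting error are not covered. Doublets were treated in an alternative, by Scrublet (scanpy 1.11.5; 116, 167 and 156 cells). From each list and class, at most 3 genes per direction past 2-fold were named by size of change. Fcer1g, Syk, Cblb, Pglyrp1, Klrd1, Cd300lb and further genes under 2-fold were named after their values were seen. Alternatives changed the filter, gate, doublets, scaling (edgeR 4.0.16 TMM, or CPM without hemoglobin, ribosomal and mitochondrial genes), averaging, depth, thresholds and correlation. 2 further ones, cells of at least 3000 UMIs and neutrophils without immature cells, were added after the data were seen. Python 3.11.15, numpy 2.4.6, scipy 1.17.1 and R 4.3.3 were used. The code for ratio intervals, fold calls, the class gate and thinning was run on simulated counts. Those counts held counting error alone, so they could not show how the intervals do under cell-to-cell spread.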

Additional observations from a re-analysis of the deposited data

Results flagged for a closer look

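Opposite directions in a pair of classes drew attention to 3 genes. In each case the difference was not tested, since there was 1 library per condition. Trem2 at D14 was at log2 0.78 over naive in cMono-like cells and at log2 -4.18 in ncMono-like cells, a difference of 4.96 on the log2 scale that rests on 25 and 70 UMIs against 12 and 4. Treml2 was at log2 0.88 in cMono-like cells (interval 0.01 to 1.83) and at log2 -2.04 in T-like cells, a difference of 2.92 on the log2 scale. The cMono-like side rests on 15 and 45 UMIs, barely clears no change and was not recomputed under the alternatives. The T-like side rests on 767 and 15 UMIs. Treml4 was at log2 1.39 in cMono-like cells and at log2 -1.32 in neutrophil-like cells, a difference of 2.71 on the log2 scale. The cMono-like side of Treml4 was at log2 0.72 with a looser class gate and rests on 25 UMIs in naive and 107 in D14, and the neutrophil-like side on 834 and 414.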

How the results depend on the processing

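Of 471 log2 ratios of the 7 genes recomputed under the alternatives, 441 stayed within their counting interval, 30 moved beyond it, and none of those past 2-fold changed sign. Tyrobp at D14 in neutrophil-like cells (log2 -0.88) was at -0.84 without Scrublet doublets, -0.70 with TMM factors, -1.08 as a mean of per-cell CPM, -0.79 in cells of at least 3000 UMIs and -0.83 without immature cells, and in ncMono-like cells (-0.23) it was at -0.14 as a mean of per-cell CPM. Treml4 in neutrophil-like cells (-1.32) was at -1.14 with TMM factors, -0.84 as a mean of per-cell CPM, which is under 2-fold, and -1.52 in cells of at least 3000 UMIs. Trem3 in cMono-like cells stayed between 1.80 and 2.35, and Trem1 there between 1.49 and 2.68. Tyrobp in B-like cells (-3.49) was at -2.22 without doublets. TMM factors moved the D14 ratios of all genes by log2 0.18 in neutrophil-like, -0.17 in T-like and -0.20 in B-like cells. In the counts that follow, the share of all genes past the fold under the same setting is in brackets. The 7 of 40 pathway genes lower in neutrophil-like cells (9.66%) became 4 of 39 with TMM factors (6.35%). As a mean of per-cell CPM they were 2 of 39, Cd300lb and Cd300c2 (7.67%). Without immature cells they were 2 of 40, Cd300c2 and Apoe (6.84%), and at 1.5-fold 12 of 40 (24.6%). The 0 higher there (8.01%) became 1 under some settings. It was Pglyrp1 with the stricter filter of 500 genes and 5% mitochondrial UMIs (8.03%), without doublets (7.54%) and with TMM factors (10.5%). It was also Pglyrp1 in deep cells (7.82%) and at 1.5-fold (13.5%), and Dok2 at 20 CPM (8.44%). In cMono-like cells 1 of 37 higher (4.69%) became 0 of 37 with the stricter filter (5.21%). At 20 CPM it became 2 of 47 (5.89%) and at 1.5-fold 2 of 37 (12.3%). The 4 of 37 lower there (3.72%) became 2 of 37 as a per-cell mean (3.46%) and 8 of 37 at 1.5-fold (11.2%). In ncMono-like cells 1 of 44 higher (3.32%) became 3 of 44 at 1.5-fold (8.96%). In NK-like cells 0 of 35 higher (3.50%) became 1 of 42 at 20 CPM (5.72%) and 1 of 35 at 1.5-fold (12.3%). The cause was not tested. Of the 7 sets of 3 most similar genes, none stayed the same with Spearman correlation. Trem1, Trem2, Treml4 and Tyrobp shared no gene between the measures, Trem3 only C5ar1, Treml2 only Rbm38, and Hcst Kif1b and Rinl. Counting error limits Trem2 in all classes, Trem1 and Treml4 in cMono-like cells, and the NK-like and B-like classes of D14. No paired analysis was possible because each condition had 1 library.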

Other observations

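Receptors of the TREM cluster were found in the same cells to differing degrees, and the differences below were not tested. After thinning to 1000 UMIs, Trem3 was found in 58.0%, 56.8% and 58.7% of neutrophil-like cells that held a Trem1 UMI in naive, D11 and D14, and in 50.1%, 51.0% and 50.8% of those that held none. Treml4 was found in 17.4%, 9.14% and 9.57% of cells with a Trem3 UMI and in 10.5%, 6.74% and 6.61% of cells without one. The lower Treml4 share with disease was thus present in cells with and without Trem3. Between neutrophil-like cells with and without a Trem1 UMI, Treml4 was at 15.2%, 10.0% and 8.92% against 13.8%, 7.49% and 7.94%. These differences were smaller than those by Trem3 in naive and D14, and about the same in D11. In ncMono-like cells Treml4 was found in 26.7%, 29.4% and 28.6% of cells with a Trem3 UMI. Cells without one were at 42.9%, 33.7% and 33.4%. The former rest on 4 of 15, 10 of 34 and 24 of 84 cells, too few to set an order. The 15 Trem3 UMIs of naive NK-like cells all lay in 1 cell.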
